A study of Saccharomyces cerevisiae with 57 samples.

Results

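The terminal 2 kb of the budding yeast chromosomes were the outermost 2000 bp at both ends of the 16 nuclear chromosomes in the sacCer3 reference. They were chosen by position alone, as 20 bins of 100 bp counted inward from each of 32 ends, which gave 640 bins of 120698 in all and 0.532% of the nuclear sequence outside the ribosomal DNA (rDNA). Ends are named as in the yeast annotation, so that TEL14R is the right end of chromosome XIV. Cleavage was measured by ChEC-seq, in which micrococcal nuclease (MNase) fused to a DNA-binding protein cuts near the places where that protein sits once calcium is added to permeabilized cells. The unit throughout, EPM, is fragment ends per 1000000 nuclear ends outside the rDNA, and a 2-kb window holding only its even share of cuts would have 166 EPM.

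Rap1, Abf1 and Reb1 carried 3FLAG-MNase at the C terminus of the chromosomal gene (RAP1-, ABF1- and REB1-3FLAG-MNase-kanMX6). The control strain carried free MNase (P_REB1-3FLAG-MNase-NLS at ura3), which has a nuclear localization signal and no DNA-binding partner and was driven by the REB1 promoter. All strains were of the W1588-4C background, which is W303 with a working RAD5 gene, and the reads had been placed on the S288C reference, and chromosome ends are known to differ between yeast strains. Each strain was sampled without calcium, at 6 times in steps of 10 s up to 60 s and at 2.5, 5, 10 and 20 m of digestion, with 3 libraries at 30 s for each fusion and 1 library everywhere else. Further libraries held short-linker fusions of Abf1 and Reb1 and an N-terminal fusion of Reb1, which was made from a plasmid in cells that lacked chromosomal REB1. Nothing states that the 30 s libraries came from separate cultures, so the tests measure the spread between libraries, which may be technical. The sample titles carry a code that the labels do not explain. At 30 s, replicate 1 of each fusion carries another code than its replicates 2 and 3. Rap1 and Abf1 libraries share no code with free MNase, so fusion and code cannot be told apart in those comparisons. Reb1 libraries of the first minute, with replicate 1 at 30 s among them, share theirs with free MNase, and replicates 2 and 3 of Reb1 share theirs with replicate 1 of Rap1 and Abf1. The 56 libraries held 1984049 to 13259291 usable ends, except free MNase at 20 s, which held 60071.

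Yeast telomeres are irregular repeats of TG followed by G runs, and Rap1 binds them directly and brings the Sir and Rif proteins that silence nearby genes and limit telomere length. Inside the repeats lies a core X element, which holds a replication origin sequence and an Abf1 site, and at many ends a longer Y′ element, which encodes a helicase, lies between the X element and the repeats. Between these blocks lie short sequences with sites for Tbf1 and Reb1, which are known to oppose the spread of silencing. The annotation gave a Y′ element at 17 of the 32 ends and none at 15, here called X-only ends. All 15 X-only ends and 7 of the Y′ ends finished in the reference with an uninterrupted tract of A and C letters, the repeat as read inward from the end, of at least 19 bases. The other 10 Y′ ends had 0 to 11 such letters. Annotated genes overlapped 28 of the ends (33 genes, 32 of them protein-coding), among them 7 YRF1 genes for the Y′ helicase, 3 PAU genes of a stress-linked wall protein family and 3 COS genes of a subtelomeric family.

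The outermost 80 bp of 3 ends are shown because the Rap1 results turn on these repeats. All sequences run 5′ to 3′ inward from the chromosome end in sacCer3, and capitals here mark ACACCCA, the reverse complement of the Rap1 core motif TGGGTGT, including matches that run past the last base shown.
TEL14R, chrXIV:784254-784333, minus strand: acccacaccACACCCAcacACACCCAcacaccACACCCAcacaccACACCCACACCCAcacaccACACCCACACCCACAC
TEL03L, chrIII:1-80, plus strand: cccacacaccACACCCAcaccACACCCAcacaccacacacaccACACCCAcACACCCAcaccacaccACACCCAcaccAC
TEL01R, chrI:230139-230218, minus strand: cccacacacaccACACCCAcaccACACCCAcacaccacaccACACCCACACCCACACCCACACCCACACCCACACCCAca
The next set holds the base most often cut in the Reb1 libraries at 6 Y′ ends, at the 20th letter of each sequence, and capitals mark TTACCCG, the Reb1 core motif.
TEL08L, chrVIII:38-97, plus strand: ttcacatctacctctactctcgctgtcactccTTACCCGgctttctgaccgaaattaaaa
TEL08R, chrVIII:562394-562453, minus strand: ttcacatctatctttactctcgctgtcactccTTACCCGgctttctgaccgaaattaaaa
TEL12L, chrXII:79-138, plus strand: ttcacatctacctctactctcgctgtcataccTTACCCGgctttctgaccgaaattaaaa
TEL13L, chrXIII:55-114, plus strand: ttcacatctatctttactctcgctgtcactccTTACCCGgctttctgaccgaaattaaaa
TEL15R, chrXV:1091210-1091269, minus strand: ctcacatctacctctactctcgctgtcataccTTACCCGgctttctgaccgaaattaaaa
TEL05R, chrV:576729-576788, minus strand: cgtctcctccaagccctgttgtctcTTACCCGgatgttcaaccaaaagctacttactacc
The last set holds the base most often cut in the Abf1 libraries at 5 X-only ends, at the 31st letter, and capitals mark the match to the Abf1 consensus, a bipartite motif with an unspecific spacer.
TEL01L, chrI:493-552, plus strand: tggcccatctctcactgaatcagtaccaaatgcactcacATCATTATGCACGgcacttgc
TEL02R, chrII:812628-812687, minus strand: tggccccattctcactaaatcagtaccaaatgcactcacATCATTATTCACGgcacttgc
TEL09R, chrIX:439317-439376, minus strand: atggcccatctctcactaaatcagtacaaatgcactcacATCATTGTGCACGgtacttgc
TEL10R, chrX:745151-745210, minus strand: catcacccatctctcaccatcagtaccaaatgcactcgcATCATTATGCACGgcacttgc
TEL15L, chrXV:540-599, plus strand: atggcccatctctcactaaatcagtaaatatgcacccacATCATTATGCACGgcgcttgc

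Searched on both strands, with overlapping matches counted, TGGGTGT lay in 22 of the 32 ends (68.8%), against 15.6% of 5999 windows of 2 kb over the nuclear genome. Of its 189 matches, 186 started within the outermost 500 bp. TTACCCG lay in 17 ends (53.1%, against 11.8% of windows), namely in 7 of 7 Y′ ends with a tract, 8 of 10 without one and 2 of 15 X-only ends. The Abf1 consensus lay once in each of the 15 X-only ends and in none of the 17 Y′ ends (46.9% of ends, against 20.6% of windows). TTAGGG, the core motif of Tbf1, lay in 25 ends (78.1%, against 37.9% of windows).

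Repeats limit what can be read at a single end. Only 20.7% of the 25-base words in the terminal 2 kb occurred once in the genome, against 93.3% over the nuclear chromosomes, and 369 of the 640 bins held no unique word. Libraries were sequenced for 25 bases from each side of a fragment, and 16.1% to 35.0% of the fragments with an end in these regions had at least 1 unique end read. How reads with several equal places were assigned is not given in the sources used here. In 40 groups of bins with identical sequence (84 bins), the copy with most ends held a median of 1.09 to 1.21 times the ends of the copy with fewest in the fusion libraries at 30 s, and 1.11 times in free MNase. Values at Y′ ends are therefore averages over copies. The X-only ends held 0.4% to 97.6% unique words, and the Y′ ends 0% to 12.8%.

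The terminal 2 kb took a large part of all cleavage in the Rap1 and Reb1 libraries at 30 s and a small part in the Abf1 libraries. The sums were 145684, 140796 and 174305 EPM for Rap1, 34751, 30286 and 27786 for Abf1 and 109881, 81329 and 70491 for Reb1, against 22215 in the single free MNase library. No 2 fusions overlapped. Rap1 placed 15.4% ± 1.8 of its ends there, Abf1 3.09% ± 0.35 and Reb1 8.72% ± 2.03 (SD, n = 3 each), which is 28.9 ± 3.4, 5.82 ± 0.66 and 16.4 ± 3.8 times the even share, against 4.18 times for free MNase. The Rap1 sum was 4.96 times that of Abf1 and 1.76 times that of Reb1, and the Abf1 sum was 0.355 times that of Reb1. Each of these 3 comparisons gave p = 0.10 in a two-sided exact permutation test, also after adjustment over the 3, and 0.10 is the smallest p that 3 against 3 libraries allow. Between libraries of the same code, Rap1 was at 4.19 times Abf1 in replicate 1 and at 5.43 times in replicates 2 and 3. Rap1 replicate 1 was at 1.92 times and Abf1 replicate 1 at 0.458 times the mean of Reb1 replicates 2 and 3. The size of the Rap1 to Abf1 ratio moved with the processing, to 2.20 without the A/C-only tract of each end, 2.40 with identical fragments counted once, 3.11 without TEL03L and TEL14R and 7.87 with fragments of at most 150 bp. With those short fragments the Abf1 to Reb1 ratio was 0.140. The exact permutation test gave p = 0.10 in each of these settings too. The ratio of Rap1 to Reb1 moved with the telomeric tracts. It was 0.832 (p = 0.20, exact permutation test) without the A/C-only tract of each end and 1.12 (p = 0.50, exact permutation test) without TEL03L and TEL14R, both settings chosen after seeing the data. With fragments of at most 150 bp it was 1.10 (p = 0.40, exact permutation test) and with a unique end read 1.33 (p = 0.30, exact permutation test). Fragment length moved with the groups: the median length of fragments with an end in these regions was 118 to 169 bp in the Rap1 libraries at 30 s, 213 to 230 bp in the Abf1 ones, 160 to 174 bp in the Reb1 ones and 205 bp in free MNase, and its part in the result was not tested.

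Cleavage fell steeply with distance from the chromosome end in the fusion libraries. The outermost 100 bp, summed over the 32 ends, held 57253 ± 9405 EPM in Rap1 libraries, 6649 ± 986 in Abf1 libraries and 28011 ± 8965 in Reb1 libraries (SD, n = 3 each), against 4152 in free MNase. That bin alone carried 37.2% of the terminal ends in Rap1 libraries, 21.4% in Abf1 libraries and 31.7% in Reb1 libraries. Free MNase at 30 s held 18.7% there, less than at the other times of the first minute (21.7% to 27.5%) and at 2.5 m (31.8%). The Abf1 libraries (20.0% to 22.8%) overlapped the lowest of those other control values, and the Rap1 libraries (35.1% to 39.1%) lay above all of them. From 1001 to 2000 bp the fusions lay below the control. There Rap1 libraries reached 0.626 ± 0.088 times the even share, Abf1 libraries 0.768 ± 0.034 and Reb1 libraries 0.395 ± 0.017 (SD, n = 3 each), against 2.44 in free MNase, so that all 9 fusion libraries were under the even share and the control was above it. The free MNase library at 30 s held 29.2% of its terminal ends between 1001 and 2000 bp, more than the free MNase libraries at 20 s (17.7%) and 40 s (17.6%), so the control itself varied here. From 2001 to 5000 bp, Rap1 libraries were again above the even share (1.82 to 2.84 times), as were Reb1 libraries (1.12 to 1.41 times), Abf1 libraries were under it (0.509 to 0.615 times) and free MNase was at 2.03 times.

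**Figure D1:**
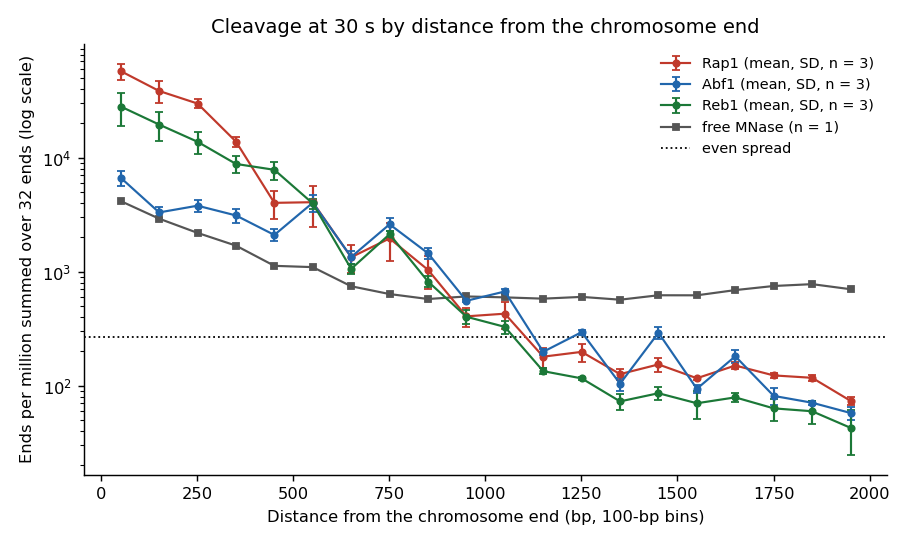
EPM at 30 s summed over the 32 chromosome ends (log scale) in each 100-bp bin, by distance from the end in bp. Points are means and bars SD of 3 libraries for Rap1, Abf1 and Reb1, squares the single free MNase library, and the dotted line the even share. Rap1 is highest near the end (57253 in the outermost bin, against 4152 in free MNase), Abf1 has a second maximum of 4016 at 501 to 600 bp, and all 3 fusions lie under free MNase beyond 1100 bp.

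The median end told the same in single bins. In the outermost bin it held 1008 EPM in Rap1 libraries, 139 in Abf1 libraries and 422 in Reb1 libraries, against 75.9 in free MNase, where an even share would be 8.31. In the innermost bin, from 1901 to 2000 bp, it held 1.37, 0.686 and 1.14 EPM in Rap1, Abf1 and Reb1 libraries, against 26.5 in free MNase. The fall was not steady. The summed Abf1 profile had a second maximum of 4016 ± 682 at 501 to 600 bp, after 2096 ± 249 at 401 to 500 bp, and another of 2598 ± 345 at 701 to 800 bp (SD, n = 3 each). The mean of each fusion was higher at 701 to 800 bp than at 601 to 700 bp, with 1954 against 1337 in Rap1 libraries, 2598 against 1343 in Abf1 libraries and 2127 against 1057 in Reb1 libraries. The bin from 501 to 600 bp was 4060 ± 1590 in Rap1 libraries, 4016 ± 682 in Abf1 libraries and 3959 ± 391 in Reb1 libraries, which did not differ beyond their spread.

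Levels differed widely between ends, and for Rap1 they went with the length of the telomeric tract in the reference. TEL14R (tract of 296 bases) had 33225, 32201 and 41883 EPM in Rap1 libraries and TEL03L (363 bases) had 31514, 29995 and 39424. These are the ends with the longest tracts, and together they carried 45.1% ± 1.4 of the terminal ends in Rap1 libraries, 12.4% ± 0.5 in Abf1 libraries and 13.8% ± 0.7 in Reb1 libraries (SD, n = 3 each), against 15.99% in free MNase. TEL08R, a Y′ end with 188 tract bases, came next, at 10842 ± 2511, beside TEL11R (213 bases) at 10396 ± 2210 (SD, n = 3 each), and these 2 ends did not differ beyond their spread. Across the 32 ends, Spearman's rho with tract length was 0.837 for Rap1, 0.736 for Abf1, 0.616 for Reb1 and 0.103 for free MNase. These are descriptions over ends that share libraries and repeat reads. Unique words made up 8.85% of TEL14R and 50.95% of TEL03L. Fragments with a unique end read were 19.8% to 21.6% of those in these regions in Rap1 libraries at 30 s. They were 33.1% to 34.1% in Abf1 libraries and 30.6% to 32.4% in Reb1 libraries. Tract reads from other ends may thus be placed at the ends with long tracts, and their part in these levels was not tested. The tracts themselves held 66.1% ± 6.0 of the terminal ends in Rap1 libraries, 24.3% ± 1.9 in Abf1 libraries and 28.4% ± 3.3 in Reb1 libraries (SD, n = 3 each), against 31.3% in free MNase.

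**Figure D2:**
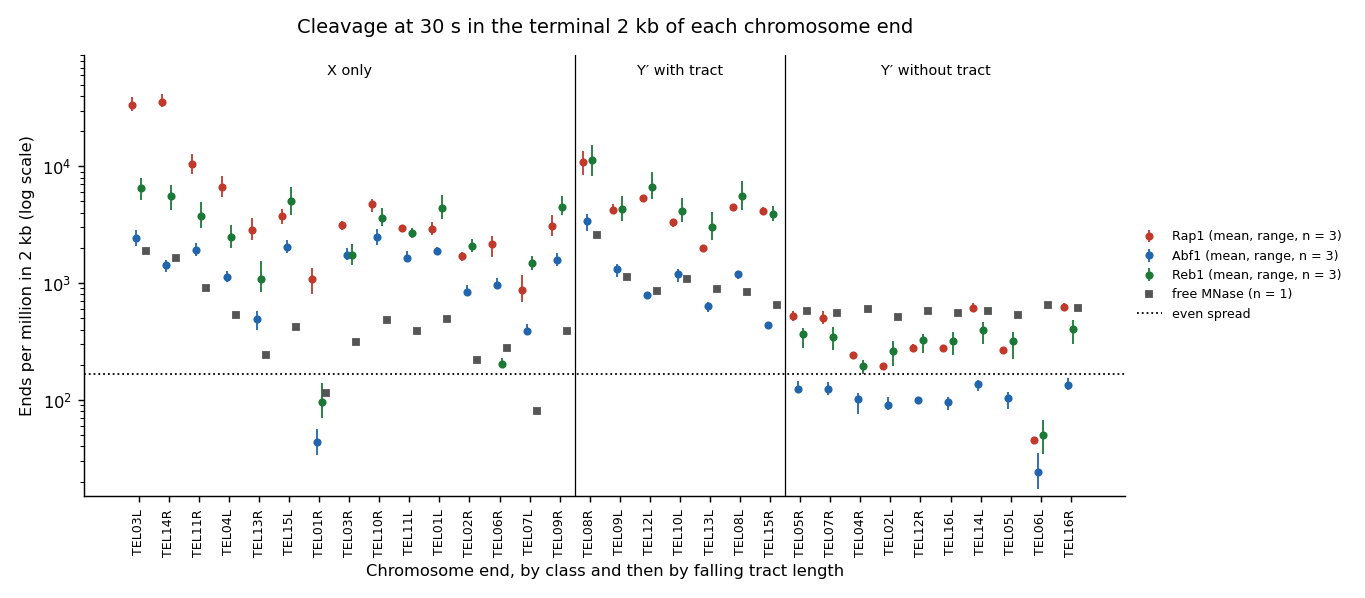
EPM at 30 s in the terminal 2 kb of each of the 32 chromosome ends (log scale). Ends are grouped as X only, Y′ with tract and Y′ without tract and ordered by falling tract length. Circles are means and bars the range of 3 libraries for Rap1, Abf1 and Reb1, squares the free MNase library and the dotted line the even share of 166. Rap1 stands highest at TEL03L and TEL14R (33644 and 35770), and at the 10 Y′ ends without tract every Abf1 mean lies under free MNase.

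Abf1 and Reb1 had TEL08R as their highest end. It held 3898, 3472 and 2789 EPM in Abf1 libraries, with TEL10R (2460 ± 403) and TEL03L (2428 ± 406) next (SD, n = 3 each). Their ranges overlapped across libraries, but TEL08R was the highest end within each of these 3 Abf1 libraries. TEL08R held 15339, 10260 and 8322.5 in Reb1 libraries, with TEL12L (6715 ± 1967) and TEL03L (6520 ± 1387) next. In free MNase the highest ends were TEL08R (2596), TEL03L (1894) and TEL14R (1657), and the lowest TEL07L (80.1). TEL06L, a Y′ end with no tract base, was the lowest in all 3 fusions, at 45.1 ± 1.0 in Rap1 libraries, 24.3 ± 9.4 in Abf1 libraries and 50.1 ± 16.8 in Reb1 libraries (SD, n = 3 each), against 652 in free MNase. TEL01R held 810, 1092 and 1350 EPM in Rap1 libraries, 56.7, 33.9 and 40.9 in Abf1 libraries and 139, 78.6 and 69.7 in Reb1 libraries, against 114 in free MNase, and its Abf1 level was the lowest of the 15.

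Levels differed by class of end in every fusion. The 15 X-only ends summed to 115698 ± 15212 EPM in Rap1 libraries, 20945 ± 2737 in Abf1 libraries and 45330 ± 10016 in Reb1 libraries (SD, n = 3 each), against 8410 in free MNase. The 7 Y′ ends with a tract summed to 34330 ± 3083, 8959 ± 1061 and 38915 ± 10975 in Rap1, Abf1 and Reb1 libraries (SD, n = 3 each), against 8050 in free MNase. The 10 Y′ ends without a tract summed to only 3567 ± 249, 1038 ± 124 and 2989 ± 626 (SD, n = 3 each), against 5755 in free MNase. Y′ ends with a tract thus held 22.4% of the terminal ends in Rap1 libraries, 28.95% in Abf1 libraries and 44.6% in Reb1 libraries. The classes differ in their number of ends, and for Rap1 and Reb1 the median end ranked them otherwise than the sums. It held 3091 EPM at X-only ends and 4226 at Y′ ends with a tract in Rap1 libraries, and 2664 and 4274 in Reb1 libraries. In Abf1 libraries it was higher at X-only ends, at 1566 against 1190. TEL03L and TEL14R, with 33644 and 35770 EPM in Rap1 libraries, are both X-only ends. Sequence that is missing from the reference at the ends without a tract could take no reads there, and its part in these sums was not tested. The annotation notes missing repeats at 6 of these ends. Free MNase held 508 to 652 EPM at single ends of this class.

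Set against the single free MNase library at 30 s, an end was counted as higher or lower where all 3 libraries of a fusion were at or past 2-fold of it, with no test. Rap1 was higher at 22 ends, which were all 15 X-only ends and all 7 Y′ ends with a tract, and lower at 3. Among all 5992 windows of 2 kb tested, 7.93% were higher and 74.7% lower. Abf1 was higher at 9 X-only ends and lower at all 10 Y′ ends without a tract (12.8% and 53% of windows). Reb1 was higher at 13 X-only ends and 7 Y′ ends with a tract and lower at 2 ends (10% and 63.6% of windows). The free MNase library at 40 s had 2905 EPM at the Y′ ends without a tract, compared with 5755 at 30 s. With it as the control, an alternative added after seeing the data, Abf1 was higher at 12 ends and lower at 9, Rap1 at 22 and 1, and Reb1 at 20 and 1. Shares of all windows were not counted for that control. Summed over the terminal 2 kb, Rap1 libraries were at 6.91 times free MNase (6.34 to 7.85 over the libraries), Abf1 libraries at 1.39 times (1.25 to 1.56) and Reb1 libraries at 3.93 times (3.17 to 4.95). The highest of these, 4.95, is Reb1 replicate 1, which shares its code with free MNase. With identical fragments counted once these ratios were 2.04, 0.848 and 1.63, so that the Abf1 sum was then lower than that of free MNase, and it was also lower over the terminal 5000 bp (0.924 times).

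Between fusions at 30 s, limma was fitted to log2(EPM + 0.5) over all 2-kb windows of the nuclear genome, and a window was called at an adjusted p under 0.05 and a log2 difference of at least 1. Rap1 exceeded Abf1 at 25 of the 32 ends and was lower at none (0 also at an unadjusted limma p under 0.05), while 9.55% of all windows were higher and 43.6% lower. The 25 were 9 of 15 X-only ends, 7 of 7 Y′ ends with a tract and 9 of 10 without. The largest log2 differences were 4.64 ± 0.21 at TEL14R (SE, limma adjusted p = 4.0e-37) and 4.61 ± 0.23 at TEL01R (SE, limma adjusted p = 9.0e-19). Rap1 exceeded Reb1 at 7 ends and was lower at none (10.9% and 36.2% of windows), with 5 ends lower at an unadjusted limma p under 0.05. All 7 were X-only ends: TEL01R, TEL03L, TEL04L, TEL06R, TEL11R, TEL13R and TEL14R. Of the 5 lower ends, TEL01L, TEL07L, TEL09R and TEL13L also had a limma adjusted p under 0.05. Their log2 differences of -0.54 to -0.80 fell short of the required size of 1, so they were not called. At TEL06R the levels were 2173 ± 454 for Rap1 and 204 ± 21 for Reb1 (SD, n = 3 each), a log2 difference of 3.39 ± 0.20 (SE, limma adjusted p = 1.5e-29). At the other 25 ends the log2 difference between Rap1 and Reb1 lay between -0.80 and 0.87. With fragments of at most 150 bp the calls were 8 higher and 10 lower, and with identical fragments counted once 2 and 0. With a unique end read, 25 ends were tested. Rap1 was then higher than Reb1 at 7 and lower at 2, and higher than Abf1 at 19 and lower at 1. Shares of all windows were not counted for these fragment settings.

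Abf1 was lower than Reb1 at 26 of the 32 ends and higher at 1, while 25.2% of all windows were higher and 16.3% lower. The 26 were 10 of 15 X-only ends, 7 of 7 Y′ ends with a tract and 9 of 10 without. The largest differences were at TEL15R (log2 -3.14 ± 0.20, SE, limma adjusted p = 9.1e-27) and TEL12L (log2 -3.04 ± 0.21, SE, limma adjusted p = 4.6e-25), both Y′ ends. The end that was higher was TEL06R, with 1107, 885 and 899 EPM in Abf1 libraries, against 228, 194 and 190 in Reb1 libraries (log2 2.24 ± 0.20, SE, limma adjusted p = 2.8e-18). TEL06R is also the end with most unique sequence (97.6% of 25-base words), and it lacks TTACCCG and TTAGGG. Among X-only ends TEL11L lacks both motifs too, and there Abf1 was at 1634 and Reb1 at 2664 EPM. The part of these motifs was not tested. At TEL03R the levels were 1742 ± 234 for Abf1 and 1727 ± 375 for Reb1 (SD, n = 3 each), with no difference beyond their spread.

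The same fit on 100-bp bins placed these differences along the ends. Of 640 terminal bins, 570 reached a mean of 1 EPM and were tested, and 50 of the 70 that did not lay beyond 1500 bp. Rap1 exceeded Abf1 in 250 bins and was lower in 35 (10.4% and 37.4% of all bins). In the outermost 500 bp it was higher in 125 of 158 tested bins and lower in none, and the outermost bin was higher at all 32 ends. The 35 lower bins all lay at X-only ends, beyond 500 bp. Rap1 exceeded Reb1 in 117 bins and was lower in 66 (11.8% and 30.3% of all bins). The outermost bin was higher at 17 ends and lower at 1, whereas from 501 to 1000 bp 32 bins were higher and 39 lower. Abf1 exceeded Reb1 in 107 bins and was lower in 228 (24.8% and 16.5% of all bins). All 107 higher bins lay at X-only ends, and of the 168 lower bins at Y′ ends 77 were at ends with a tract and 91 at ends without.

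**Figure D3:**
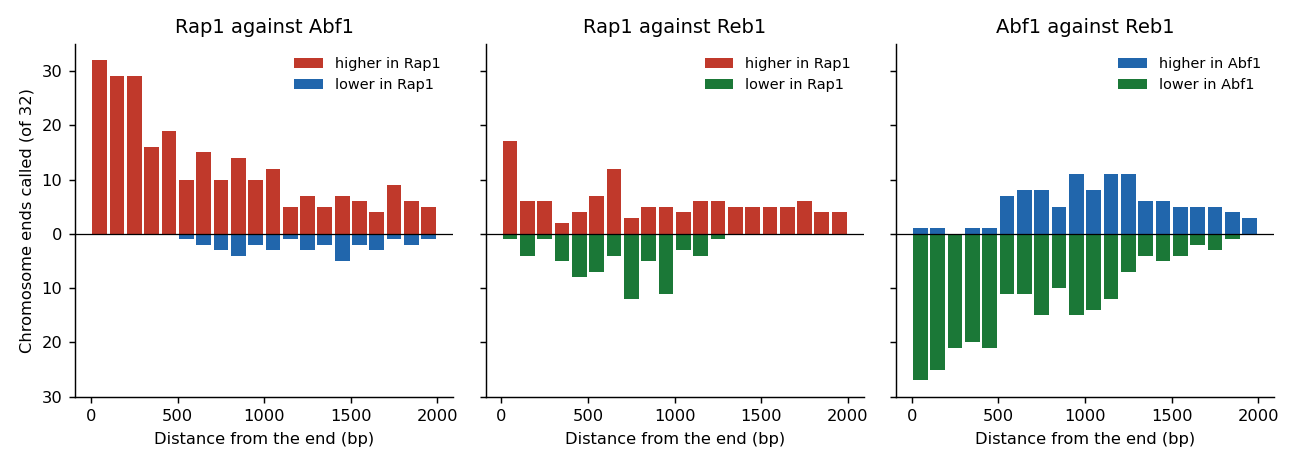
Number of the 32 chromosome ends (vertical axis) whose 100-bp bin was called by limma at 30 s, by distance from the end in bp. Upward bars count bins higher and downward bars bins lower in the first-named fusion. Against Abf1, Rap1 was higher at 32, 29 and 29 ends in the 3 outermost bins. Against Reb1, Abf1 was lower at 27 ends in the outermost bin, and its higher bins lie mostly beyond 500 bp.

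Scaling by the median region in place of the total moved the log2 differences of windows by 0.93 for Rap1 against Abf1, 0.61 for Rap1 against Reb1 and -0.31 for Abf1 against Reb1, and those of bins by 0.52, 0.62 and 0.10. On the total scale, the median log2 difference over the 32 ends was 1.60 for Rap1 against Abf1, 0.05 for Rap1 against Reb1 and -1.51 for Abf1 against Reb1, beside -0.85, -0.66 and 0.14 over all windows. Under median scaling Rap1 was higher than Abf1 at 32 ends and lower at 0, Rap1 than Reb1 at 13 and 0, and Abf1 than Reb1 at 1 and 29. The median log2 differences over all windows were then 0.07, -0.06 and -0.17. The bins split 396 higher and 6 lower for Rap1 against Abf1, and 262 and 19 for Rap1 against Reb1, with medians over all bins of -0.13 and 0.15. Shares of all windows and bins called were not counted under this scaling, so these counts have no genome-wide share beside them.

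The single bins with the largest differences show where the fusions cut. In the outermost bin of TEL14R (chrXIV:784234-784333), Rap1 libraries had 14733, 13166 and 16944 EPM, against 253, 224 and 191 in Abf1 libraries and 1505, 1428 and 1015 in Reb1 libraries, and free MNase had 526. The log2 differences were 6.07 ± 0.25 from Abf1 (SE, limma adjusted p = 1.1e-23) and 3.52 ± 0.25 from Reb1 (SE, limma adjusted p = 1.2e-16). The outermost bin of TEL03L (chrIII:1-100) had 6857, 5642 and 7751 in Rap1 libraries, against 137, 106 and 71.2 in Abf1 libraries. The outermost bin of TEL01R (chrI:230119-230218) had 745, 1016 and 1271 in Rap1 libraries, against 28.4, 16.2 and 17.5 in Abf1 libraries and 96.3, 48.8 and 41.9 in Reb1 libraries. TEL06R differed from these in that its largest gap lay inside the end, at 601 to 700 bp (chrVI:269462-269561). There Rap1 libraries had 64.8, 59.6 and 42.6 EPM, against 0.729, 1.12 and 1.23 in Reb1 libraries, in a bin that overlaps the outer end of the gene YFR057W.

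Rap1 was lower than Abf1 farther in, at the 1601 to 1700 bp bin of TEL14R (13.7, 11.1 and 9.36, against 47.6, 64.6 and 58.0 EPM) and the 1401 to 1500 bp bins of TEL11L (21.3, 17.1 and 15.8, against 72.5, 81.4 and 97.9) and TEL01L (34.4, 23.3 and 24.7, against 105, 115 and 134). In these 3 bins no Rap1 library reached an Abf1 library, but the bins were picked for their large differences. Abf1 was also higher than Reb1 in the bins of TEL11L and TEL01L just named, where Reb1 libraries had 7.66 to 9.41 and 9.60 to 15.5 EPM. The largest excess of Abf1 over Reb1 was at 101 to 200 bp of TEL06R (chrVI:269962-270061), with 304, 206 and 223 against 17.3, 18.8 and 14.7, the bin that holds the Abf1 consensus of that end. Rap1 was lower than Reb1 at 701 to 800 bp of TEL12L (26.9, 14.5 and 13.6, against 66.7, 128 and 110). It was lower too at 1001 to 1100 bp of TEL13R (8.91, 2.33 and 2.38, against 19.1, 26.0 and 23.5) and at 801 to 900 bp of TEL16R (5.41, 2.16 and 3.35, against 15.1, 21.1 and 19.4). The groups did not overlap in these bins either, which were picked in the same way, so this adds no support. Abf1 was lowest against Reb1 at 101 to 200 bp of TEL15R (chrXV:1091092-1091191), with 14.6, 13.03 and 10.6 against 1079, 853 and 790, a log2 difference of -6.10 ± 0.26 (SE, limma adjusted p = 7.6e-23). The corresponding bins of TEL08L (101 to 200 bp) had 54.2, 46.0 and 50.1 against 843, 626 and 552, and those of TEL11R (201 to 300 bp) 97.0, 75.0 and 64.2 against 1302, 966 and 801.

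The base with most ends at each chromosome end was set against the motifs. The highest Abf1 base of an X-only end lay 9 bp outward of the Abf1 consensus at 9 of 15 ends and 13 or 16 bp outward at TEL11L and TEL03R. It was the same base in all 3 libraries at 6 of the 9. It held 31.9 to 106 EPM at those 9, against at most 1.99 in free MNase. The sequences printed for Abf1 show this spacing, with the cut letter 9 places before the capitals. At TEL10R that base (chrX:745180) held 106 ± 18 (SD, n = 3). At TEL01R, TEL07L, TEL13R and TEL14R the highest Abf1 base lay farther from the consensus, by 19 to 157 bp, with 4.88 to 29.9 EPM.

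Rap1 libraries were cut at the same X-element position. Summed over the 15 X-only ends, the base 9 bp outward of the consensus was the highest within 100 bp in both Rap1 libraries (268 EPM) and Abf1 libraries (579), and the 25 bp just outward of it took 24.4% and 46.9% of the ends in those 201 bases, against 13.7% in free MNase. Rap1 replicate 1, which carries another code, was the highest Rap1 library within 100 bp of the consensus at all X-only ends but TEL06R. It held 990 EPM at TEL01L, against 525 and 548 in replicates 2 and 3, and 1053 at TEL09R, against 476 and 525. At TEL06R it held 510, against 708 and 665. In Reb1 libraries the highest base lay 87 bp outward of the same consensus (628 EPM), although 13 of the 15 ends hold no TTACCCG, and the 25 bp next to the consensus took 10.3%.

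**Figure D4:**
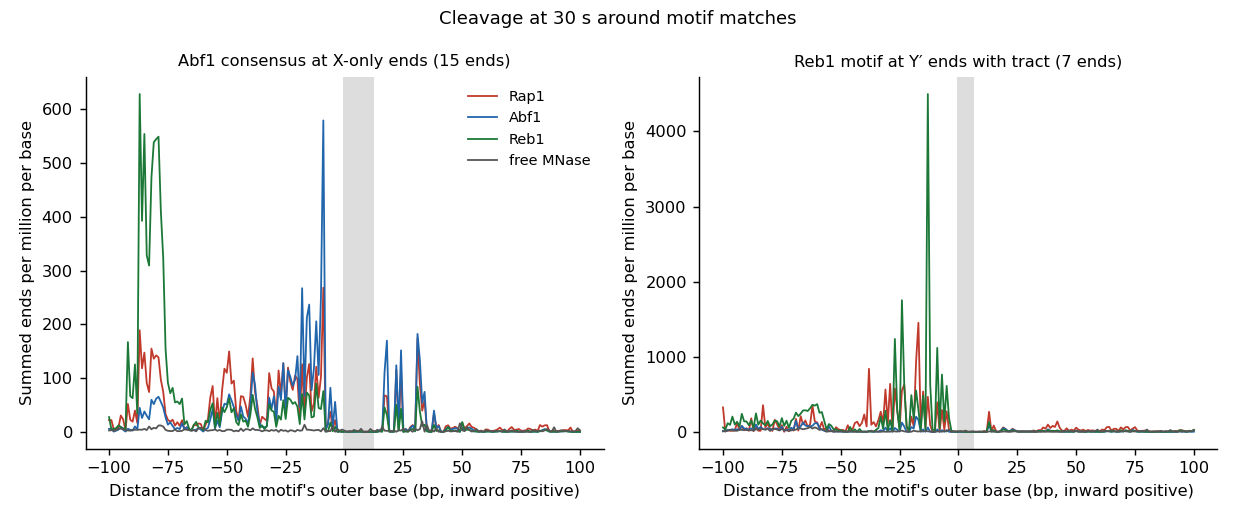
EPM at 30 s at each base, summed over ends and averaged over 3 libraries for Rap1, Abf1 and Reb1 (1 for free MNase), by distance in bp from the outer base of the motif. Left, the Abf1 consensus at the 15 X-only ends. Right, the outermost TTACCCG at the 7 Y′ ends with a tract. Grey bands mark the motif. Abf1 peaks at 9 bp outward (579) beside a Rap1 peak of 268, and Reb1 peaks 13 bp outward of TTACCCG (4498).

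Reb1 cut just outward of TTACCCG at every Y′ end that holds the motif. At 5 of the 7 Y′ ends with a tract its highest base lay 13 bp outward (529 to 1084 EPM, against 0.199 to 2.59 in free MNase), and at TEL09L and TEL10L 24 bp outward (261 and 252). It was the same base in all 3 libraries at all 7 ends. At TEL08L it held 935 ± 253, at TEL12L 1084 ± 350 and at TEL15R 851 ± 254 (SD, n = 3 each), and at TEL15R this base carried 21.9% of all terminal ends of that chromosome end. At the 8 Y′ ends without a tract that hold TTACCCG, the highest base of the mean over libraries lay 6 bp outward at all 8, with 15.9 to 23.8 EPM. It was the highest base in 2 of the 3 libraries at each of these ends, and held 6.20 to 9.12 EPM in replicate 1, against 19.04 to 36.6 in replicates 2 and 3, which carry another code. TEL05R shows the arrangement in the printed set, where the flanking letters differ from those of the other 5 ends. Y′ ends hold 0% to 12.8% unique words and their values are averages over copies. Agreement among these ends therefore does not count separate sites. Summed over the 7 ends with a tract, the base 13 bp outward held 4498 in Reb1 libraries, and the 25 bp outward of the motif took 53.1% of the ends within 100 bp. In Rap1 libraries they took 35.3%, with the highest base 17 bp outward (1453), and in Abf1 libraries 20.7%, against 8.79% in free MNase. At X-only ends, 13 of which lack TTACCCG, the highest Reb1 base lay 90 to 553 bp from the chromosome end.

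The highest Rap1 base lay inside the A/C-only tract at 14 ends, 11 of them X-only. Of the 22 ends with a TGGGTGT match, 13 had that base within 5 bp of a match and 19 within 25 bp, but matches are dense in the tracts (31 at TEL03L and 27 at TEL14R), and the closeness was not set against other bases of the tracts. At TEL14R it lay 28 bp from the chromosome end (chrXIV:784306) and held 2938 ± 534 EPM, against 11.6 in free MNase. At TEL03L it lay in the tract, 329 bp from the end, with 1257 ± 337 (SD, n = 3 each). At TEL05R, TEL07R, TEL14L and TEL16R, Y′ ends without a tract and without TGGGTGT, the highest Rap1 base lay 94 bp outward of TTACCCG and 39 bp outward of TTAGGG, with 33.5 to 35.4 EPM, against at most 0.398 in free MNase. These ends hold 0% unique words, so they do not count as separate sites.

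Over the digestion the share of ends in the terminal 2 kb declined in all strains. Time points were aliquots taken from a digest, with 1 library each beyond 30 s, so they are not replicates, and no test was made over time. Whether the seconds and the minutes of a strain came from the same digest is not given in the sources used here. In the Rap1 strain the sums were 242278, 196807, 145684, 127219, 97716 and 89324 EPM over the 6 times of the first minute, taking replicate 1 at 30 s, and then 44827, 27096, 19434 and 15268 at 2.5, 5, 10 and 20 m. In the Abf1 strain they were 44817, 38537, 34751, 33579, 33019 and 31832 over the seconds and 23597, 19052, 15769 and 12893 over the minutes. Both series fell at all 9 steps. In the Reb1 strain they were 176352, 137597, 109881, 96755, 90382 and 92601 over the seconds and 52699, 37270, 22096 and 17937 over the minutes, with 8 falling steps and a level course from 50 to 60 s. In free MNase they were 20541, 16947, 22215, 17188, 19953 and 15139 over the seconds and 21013, 14479, 9701 and 7890 over the minutes, highest at 30 s and with no steady course before 2.5 m.

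The level at 20 m was 0.0630 times that at 10 s for Rap1, 0.288 times for Abf1, 0.102 times for Reb1 and 0.384 times for free MNase, with counting intervals (95%) of 0.0627 to 0.0634, 0.286 to 0.290, 0.101 to 0.102 and 0.380 to 0.389. These intervals cover counting error only. They take every end as a separate count, with identical fragments kept, so they are likely too narrow even for that. The Reb1 library at 10 s held 484845 distinct nuclear fragments and 6493197 counted ends. Libraries of the seconds and the minutes carry different codes in the fusion strains, so the step from 60 s to 2.5 m cannot be told apart from the code there. Within the seconds alone, the 60 s level was 0.369 times the 10 s level for Rap1, 0.710 times for Abf1 and 0.525 times for Reb1, against 0.737 times for free MNase. Within the minutes alone, the 20 m level was 0.341, 0.546 and 0.340 times that at 2.5 m, against 0.375 times for free MNase. Without calcium the sums were 20824 for Rap1, 7978 for Abf1 and 15029 for Reb1, against 13408 for free MNase. The ratio to free MNase of the same time was 11.8 for Rap1, 2.18 for Abf1 and 8.59 for Reb1 at 10 s. At 20 m it was 1.94, 1.63 and 2.27. With identical fragments counted once, the 10 s sums were 93377 for Rap1, 39971 for Abf1 and 167787 for Reb1, against 41482 for free MNase. The Abf1 sum was then the lower one. At 20 m they were 13459.5, 10882 and 14516, against 7903.

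**Figure D5:**
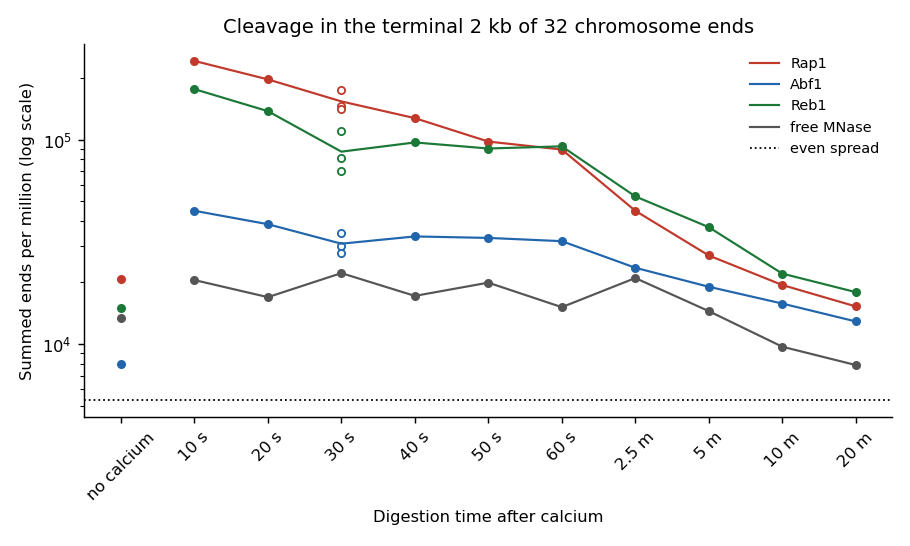
Summed EPM in the terminal 2 kb of the 32 chromosome ends (log scale) without calcium and at each digestion time. Lines join the time points of a strain through the mean at 30 s, open circles are the 3 libraries of each fusion at 30 s, and the dotted line is the even share of 5319. Rap1 falls to 15268 and Reb1 to 17937 at 20 m, and free MNase stays between 15139 and 22215 up to 2.5 m.

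The decline was not shared by all classes of end. At X-only ends the 20 m level was 0.0405 times the 10 s level for Rap1, 0.233 times for Abf1, 0.0868 times for Reb1 and 0.343 times for free MNase. At Y′ ends with a tract these ratios were 0.0779, 0.234, 0.0788 and 0.363. At Y′ ends without a tract they were 1.39 for Rap1 (3669 at 20 m, 2633 at 10 s), 3.94 for Abf1 (2599 and 660) and 1.90 for Reb1 (3442 and 1809), against 0.565 for free MNase (1676 and 2964). The fusion strains were thus higher at 20 m than at 10 s at these ends, and the control was lower. By single ends, 24 of 32 were lower at 20 m than at 10 s for Rap1, 21 for Abf1, 22 for Reb1 and all 32 for free MNase. The telomeric tracts held 5.02% of the terminal ends in the Rap1 library at 20 m and 72.5% in that at 10 s. TEL14R had 556 and 60162 EPM at these times, and TEL06L 174 and 32.9.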

How the data were processed

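The deposited files list mapped fragments by chromosome, first base and last base. The authors placed 25-base paired reads from digitonin-permeabilized cells, digested at 30 °C and selected for small DNA, on sacCer3 with Novoalign (version 2.08.03 in the processing notes). Chromosome names and lengths were checked against the RefSeq R64 reference. Both ends of each fragment were counted in 100-bp bins and 2-kb windows, without the rDNA region (chrXII:450000-490000) and mitochondrial DNA, and scaled to 1000000 ends counted per library (EPM). Identical fragments were kept. A cross-linked ChIP-seq library was not used, being another assay.

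limma 3.58.1 (R 4.3.3) was fitted to log2(EPM + 0.5) over the 9 libraries of 30 s and all regions with a mean of at least 1 EPM, with Benjamini-Hochberg adjustment, and checked on simulated data. Sums over ends were compared by exact permutation tests. Counts and ratios used Python 3.11.15, NumPy 2.4.6, SciPy 1.17.1 and pandas 2.3.3, and plots matplotlib 3.10.9. Named ends were the 3 highest and the lowest per fusion and in free MNase, and named bins up to 3 called bins per comparison and direction with the largest difference, at most 1 per end. TEL01R, TEL03R and TEL06R as ends, and the single ends given for cut positions, were chosen after their values were seen. The members, lists and motifs were chosen with earlier results of these data known. Same-numbered libraries of Rap1 and Abf1 at 30 s carry the same title code, 1 code for replicate 1 and another for replicates 2 and 3, and deviated together over windows (correlations of 0.45, 0.32 and 0.14). Same-numbered Reb1 libraries carry other codes, with correlations of -0.36, -0.31 and -0.13 with Rap1 and of -0.23, -0.37 and 0.21 with Abf1.

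The alternatives were other scalings, pseudocounts, filters, fragment classes and widths, only the compared groups, a replicate block and each library left out. They also included 4 settings chosen after seeing the data, which left out the tracts, left out TEL03L and TEL14R, took free MNase at 40 s as the control, or fitted the title code as a term.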

Additional observations from a re-analysis of the deposited data

Results flagged for a closer look

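The other fusions were single libraries, compared here with the free MNase library of the same time and with no test. At 30 s the terminal 2 kb held 26028 EPM in the Abf1 short-linker library, 68804 in the Reb1 short-linker library and 93583 in the Reb1 N-terminal library, against 22215 in free MNase, which is 1.17, 3.10 and 4.21 times the control. At 5 m they held 17855 in the Abf1 short-linker library, 24000.5 in the Reb1 short-linker library and 25540 in the Reb1 N-terminal library, against 14479 in free MNase, which is 1.23, 1.66 and 1.76 times. All 6 libraries were above the control with identical fragments kept. With identical fragments counted once, the Abf1 short-linker library at 30 s was below it, at 22292 against 31053 EPM. The others stayed above it. Without calcium, where no digestion was started, the terminal 2 kb held 20824 EPM in the Rap1 library and 15029 in the Reb1 library, against 13408 in free MNase (1.55 and 1.12 times), and the Abf1 library was lower, at 7978 (0.595 times). With identical fragments counted once, the Reb1 library without calcium was lower than free MNase, at 25424 against 38290. The Rap1 library stayed higher, at 52925, and the Abf1 library lower, at 8920. These fusion libraries carry other title codes than free MNase, and the part of the code was not tested.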

How the results depend on the processing

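Of 230 alternative values for 16 results, 3 reversed in direction and 58 moved beyond 1.5 times (counts of calls), 1 SD (ratios to free MNase) or the counting interval (ratios over time), and the causes were not tested. The ratios between fusions were judged on direction and test only, and their sizes moved as given with the sums. The reversals were Rap1 over Reb1 without the tracts (0.832) and Abf1 over free MNase with identical fragments counted once (0.848) and over the terminal 5000 bp (0.924). Ends called for Rap1 against Reb1 were 13 with median scaling, 2 with identical fragments counted once and 18 with fragments of at most 150 bp. Terminal bins called for Rap1 against Reb1 were 281 with median scaling and 113 with short fragments. Those for Rap1 against Abf1 were 124 with a unique end read and 147 with short fragments, and those for Abf1 against Reb1 161 and 175. Shares over all windows or bins were not counted for these settings.

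Rap1 over free MNase was 2.04 with identical fragments counted once, 10.4 with a unique end read, 9.73 with short fragments, 9.67 over 1000 bp, 4.49 over 5000 bp, 3.38 without the tracts, 4.51 without TEL03L and TEL14R and 8.94 against free MNase at 40 s. Abf1 over free MNase was 1.63 per all mapped ends, 2.82 with a unique end read, 1.84 over 1000 bp and 1.80 against free MNase at 40 s. Reb1 over free MNase was 1.63 with identical fragments counted once, 7.84 with a unique end read, 8.83 with short fragments, 5.48 over 1000 bp, 2.53 over 5000 bp and 5.08 against free MNase at 40 s.

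The 20 m level over the 10 s level was below 1 under all 8 alternatives in each strain. Per all mapped ends it was 0.0557 for Rap1, 0.270 for Abf1, 0.0833 for Reb1 and 0.545 for free MNase. With identical fragments counted once it was 0.144, 0.272, 0.0865 and 0.191 in the same order of strains, with a unique end read 0.0525, 0.210, 0.0612 and 0.401, and with short fragments 0.0606, 0.643, 0.0781 and 0.352. Over 1000 bp it was 0.0502, 0.228, 0.0934 and 0.331, over 5000 bp 0.0972, 0.404, 0.136 and 0.494, and without the tracts 0.218, 0.357, 0.128 and 0.527. Without TEL03L and TEL14R it was 0.110 for Rap1, 0.277 for Abf1 and 0.435 for free MNase.

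With 1 library left out at a time, ends called ranged from 23 to 28 for Rap1 against Abf1, 7 to 8 for Rap1 against Reb1 and 24 to 28 for Abf1 against Reb1, and bins from 268 to 307, 170 to 194 and 324 to 354. With a replicate block the ends called were 25, 7 and 27 and the bins 285, 183 and 334, so that it moved no count by more than 1 call. With the title code as a term the ends called were 25, 8 and 23 and the bins 285, 181 and 330. Repeats limit single ends, since 369 of the 640 bins hold no unique 25-base word.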
